A study of Mus musculus with 6 samples.

Results

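The 9 genes described here encode enzymes of the first part of cholesterol synthesis, from HMG-CoA synthase (Hmgcs1) through Mvk, Pmvk, Mvd, Idi1, Fdps, Ggps1 and Fdft1 to squalene epoxidase (Sqle). They were taken from the pathway by name, each as the probe set with the highest mean signal among those tied to 1 gene symbol, and are 9 of 19938 genes measured in this way. The cells were myotubes of C2C12, an established mouse myoblast line whose cells fuse into contractile fibres when serum is lowered from 10% to 2%. There were 6 conditions with 1 array each: Plin2 siRNA with palmitate, oleate or BSA, and scrambled siRNA with palmitate, oleate or BSA. All cells were transfected with siRNA at 10 nM. The fatty acids were given for 20 h at 200 µM, bound to BSA at 2.5 fatty acid molecules per BSA, and BSA alone was the control treatment. Plin2 encodes perilipin 2, a coat protein of lipid droplets. The cell line is 1 clone of cells kept in culture, and the labels do not say whether the 6 cultures were grown separately or on separate days, and the p-values below speak only to variation among these 6 arrays, which may be technical.

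The mevalonate pathway joins acetyl units into isoprenoids, the building blocks of sterols, of the prenyl anchors of small GTPases and of the side chain of ubiquinone. Its genes are classic targets of SREBP2, a transcription factor held in the endoplasmic reticulum by Insig proteins when sterols are plentiful and released when sterols run low. Unsaturated fatty acids are also known to restrain SREBP processing, mainly that of SREBP1.

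Sequence before the transcription start was available for 6 of the 9 genes from RefSeq (GRCm38.p6), as 7 windows of 300 bases reaching 250 bases upstream and 50 bases downstream. Shown here are the last 180 bases before the start for Hmgcs1, Mvd, Idi1 and Ggps1. For Ggps1 the annotated gene reaches base 14063566, so the start used lies within the gene and part of its stretch is inside it. Hmgcs1 and Mvd had the tightest tie to the rest, and their array values ran nearly in parallel. Idi1 had a difference between the fatty acids that was unequal under the siRNAs, as also had Pmvk, Fdft1 and Ggps1. Ggps1 had the loosest tie and varied least. Capitals mark the sterol regulatory element TCACNCCAC, the CCAAT box CCAAT and the GC box GGGCGG, each searched on both strands without mismatches.
Hmgcs1, chr13:119690171-119690350, plus strand: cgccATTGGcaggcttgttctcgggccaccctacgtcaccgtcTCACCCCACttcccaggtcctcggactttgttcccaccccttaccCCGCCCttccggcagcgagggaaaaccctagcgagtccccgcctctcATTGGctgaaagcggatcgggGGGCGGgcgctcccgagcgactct
Mvd, chr8:122443423-122443602, minus strand: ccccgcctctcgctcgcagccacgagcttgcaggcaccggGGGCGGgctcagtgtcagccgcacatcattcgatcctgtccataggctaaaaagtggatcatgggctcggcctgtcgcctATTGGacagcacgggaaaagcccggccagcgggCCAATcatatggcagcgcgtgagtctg
Idi1, chr13:8885426-8885605, plus strand: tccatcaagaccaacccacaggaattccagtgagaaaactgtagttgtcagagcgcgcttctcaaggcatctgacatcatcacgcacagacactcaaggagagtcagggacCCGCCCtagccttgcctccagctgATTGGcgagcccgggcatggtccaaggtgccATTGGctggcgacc
Ggps1, chr13:14063489-14063668, minus strand: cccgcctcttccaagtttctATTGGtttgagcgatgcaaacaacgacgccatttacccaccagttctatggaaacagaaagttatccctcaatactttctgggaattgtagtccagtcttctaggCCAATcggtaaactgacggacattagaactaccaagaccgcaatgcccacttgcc

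The sterol regulatory element was found in 1 of the 7 windows, that of Hmgcs1, where it lay 129 to 137 bases before the start; it occurs in 1.24% of all 32851 windows in the table. The CCAAT box was found in 6 of the 7 windows, with 5 matches before the start of Mvk, against 37.4% of all windows. The GC box was in 4 of the 7 and in 35.7% of all windows. The E-box CACGTG was in 0 of the 7 and in 7.15% of all windows. These matches describe letters in the windows and do not show binding.

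The arrays were comparable. Their medians over 35556 probe sets lay between 4.94 and 5.02, and Pearson correlations between arrays, across the same probe sets, were at least 0.987. Plin2 had log2 values of 7.45 with palmitate, 7.63 with oleate and 6.95 with BSA in Plin2 siRNA cells, against 10.10 with palmitate, 10.03 with oleate and 9.29 with BSA in scrambled cells, so each Plin2 siRNA array was below each scrambled array (change -2.47, SE 0.08, limma adjusted p = 2.3e-08). All 8 myotube markers (Myog, Ckm, Acta1, Tnnt3, Myh3, Des, Ttn and Mymk) were far above the array median, at 9.28 to 13.67. Markers of adipocytes, osteoblasts, macrophages and endothelial cells, 15 measured in all, lay between 3.25 and 5.53, and 0 of them exceeded the array median in all 6 arrays.

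**Figure D1:**
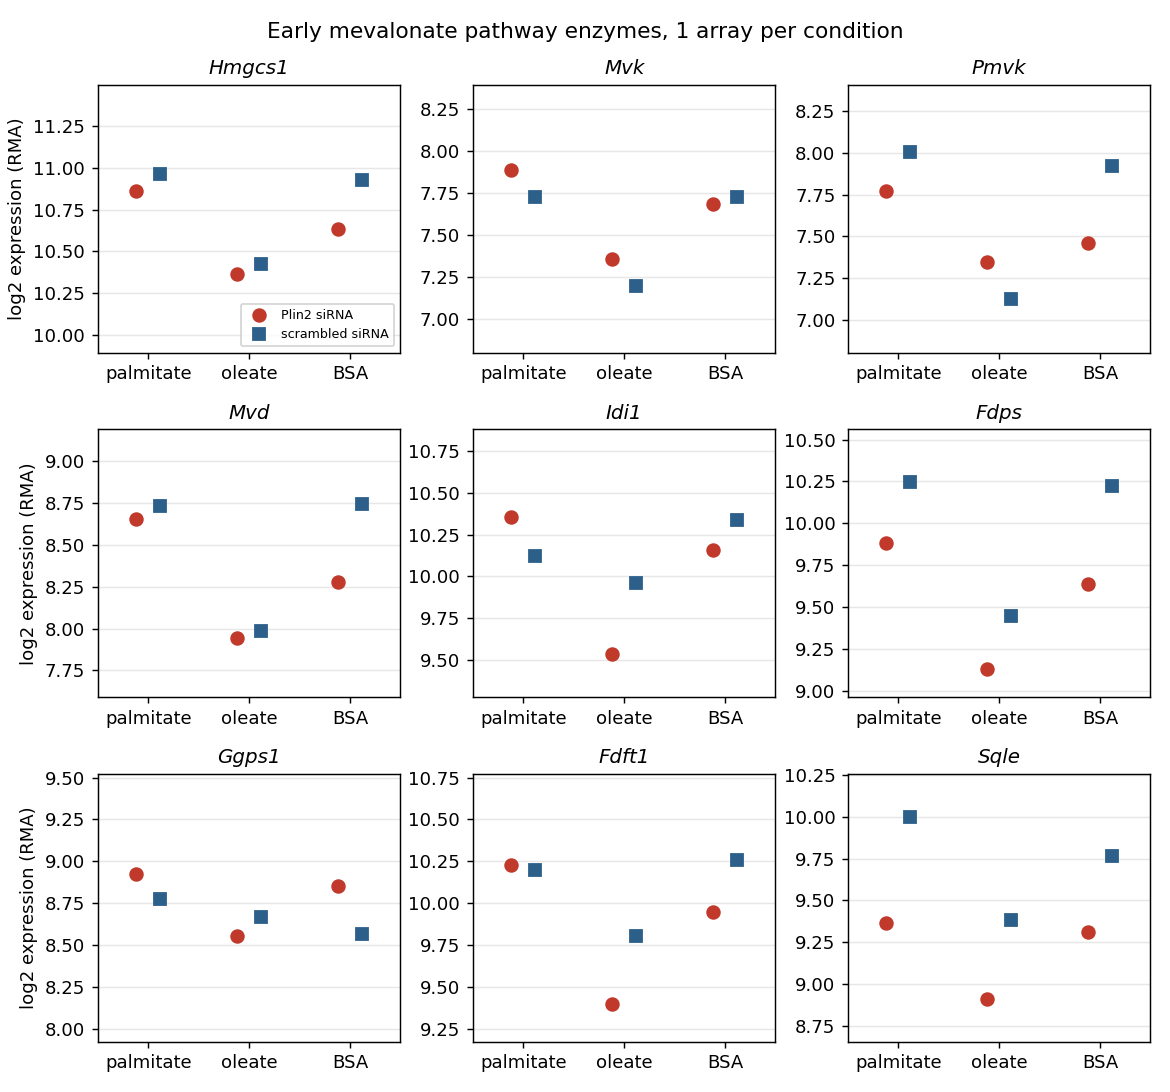
Log2 expression (RMA) of the 9 enzymes in each of the 6 arrays. Each panel is a gene on an axis of the same span, with red circles for Plin2 siRNA and blue squares for scrambled siRNA. For Hmgcs1, Mvk, Pmvk, Mvd, Idi1, Fdps and Fdft1 both oleate arrays lie below the other 4.

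Palmitate against oleate was the contrast with the most called members. All 9 enzymes were higher with palmitate than with oleate under both siRNAs, a pattern held by 28.0% of all named probe sets. With limma and Benjamini-Hochberg adjustment over 21789 probe sets, 5 of the 9 rose (Hmgcs1, Mvd, Fdps, Fdft1 and Sqle) and 0 fell, where 0.142% of all probe sets rose. The median log2 change of the 9 was 0.53, against 0.01 over all probe sets. The comparison asks how a saturated fatty acid and a monounsaturated one of longer chain differ at the same dose and time.

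The first enzyme, Hmgcs1, condenses acetoacetyl-CoA with acetyl-CoA to HMG-CoA. Its log2 values were 10.86 with palmitate, 10.37 with oleate and 10.63 with BSA in Plin2 siRNA cells, and 10.96 with palmitate, 10.42 with oleate and 10.93 with BSA in scrambled cells. The oleate arrays were the lowest under each siRNA and overlapped with none of the others. Palmitate exceeded oleate by 0.52 (SE 0.08, limma adjusted p = 0.030, over 2 array pairs), or 1.43-fold, with 0.50 in Plin2 siRNA cells and 0.54 in scrambled cells.

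Mvk and Pmvk add phosphate groups to mevalonate in turn. Mvk had log2 values of 7.89 with palmitate, 7.36 with oleate and 7.69 with BSA in Plin2 siRNA cells, against 7.72 with palmitate, 7.20 with oleate and 7.72 with BSA in scrambled cells. Its palmitate minus oleate change of 0.53 (SE 0.10) did not pass (adjusted p = 0.076), with 0.53 in Plin2 siRNA cells and 0.53 in scrambled cells. Pmvk had 7.77 with palmitate, 7.34 with oleate and 7.46 with BSA in Plin2 siRNA cells, against 8.00 with palmitate, 7.12 with oleate and 7.92 with BSA in scrambled cells. The 2 siRNAs gave unequal differences for Pmvk, 0.43 in Plin2 siRNA cells and 0.88 in scrambled cells, and the mean of 0.65 (SE 0.14) did not pass (adjusted p = 0.12).

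Mvd removes a carboxyl group to give isopentenyl diphosphate, and Idi1 turns that into its isomer dimethylallyl diphosphate. Mvd had log2 values of 8.66 with palmitate, 7.94 with oleate and 8.28 with BSA in Plin2 siRNA cells, against 8.73 with palmitate, 7.99 with oleate and 8.75 with BSA in scrambled cells. Its array values followed those of Hmgcs1 closely (Pearson r = 0.997 over the 6 arrays, which share treatments), and palmitate exceeded oleate by 0.73 (SE 0.11, adjusted p = 0.030), or 1.66-fold. Idi1 had 10.36 with palmitate, 9.54 with oleate and 10.16 with BSA in Plin2 siRNA cells, against 10.12 with palmitate, 9.96 with oleate and 10.33 with BSA in scrambled cells. The fatty acids were 0.82 apart in Plin2 siRNA cells and 0.16 apart in scrambled cells, and the mean of 0.49 (SE 0.12) did not pass (adjusted p = 0.21). A further Idi1 probe set gave 0.49 (adjusted p = 0.26).

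Fdps makes farnesyl diphosphate, the branch point to sterols, prenylated proteins and ubiquinone. Its log2 values were 9.88 with palmitate, 9.13 with oleate and 9.63 with BSA in Plin2 siRNA cells, against 10.25 with palmitate, 9.44 with oleate and 10.22 with BSA in scrambled cells. Palmitate exceeded oleate by 0.78 (SE 0.09, adjusted p = 0.0038), or 1.72-fold, the largest change of the 9, with 0.75 in Plin2 siRNA cells and 0.80 in scrambled cells. Ggps1 lengthens farnesyl diphosphate to geranylgeranyl diphosphate for protein prenylation and so stands off the sterol route. It had 8.92 with palmitate, 8.55 with oleate and 8.85 with BSA in Plin2 siRNA cells, against 8.78 with palmitate, 8.66 with oleate and 8.57 with BSA in scrambled cells. Ggps1 was the member with the smallest palmitate minus oleate change, 0.24 (SE 0.10, 95% confidence interval 0.01 to 0.47, adjusted p = 0.52), and the oleate arrays overlapped with the scrambled BSA array.

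Fdft1, squalene synthase, commits farnesyl diphosphate to sterols, and Sqle oxidises squalene in a rate-limiting step. Fdft1 had log2 values of 10.23 with palmitate, 9.40 with oleate and 9.95 with BSA in Plin2 siRNA cells, against 10.20 with palmitate, 9.81 with oleate and 10.26 with BSA in scrambled cells. Palmitate exceeded oleate by 0.61 (SE 0.10, adjusted p = 0.042), with 0.83 in Plin2 siRNA cells and 0.39 in scrambled cells, and a further Fdft1 probe set gave 0.78 (adjusted p = 0.0068). Sqle had 9.36 with palmitate, 8.91 with oleate and 9.31 with BSA in Plin2 siRNA cells, against 10.00 with palmitate, 9.38 with oleate and 9.76 with BSA in scrambled cells. Sqle was the member whose palmitate and oleate arrays overlapped across siRNAs, since its Plin2 siRNA palmitate array lay just under the scrambled oleate array; within each siRNA palmitate was higher, and the change was 0.53 (SE 0.08, adjusted p = 0.031). In 8 of the 9 genes both palmitate arrays lay above both oleate arrays, against 15.9% of all probe sets.

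**Figure D2:**
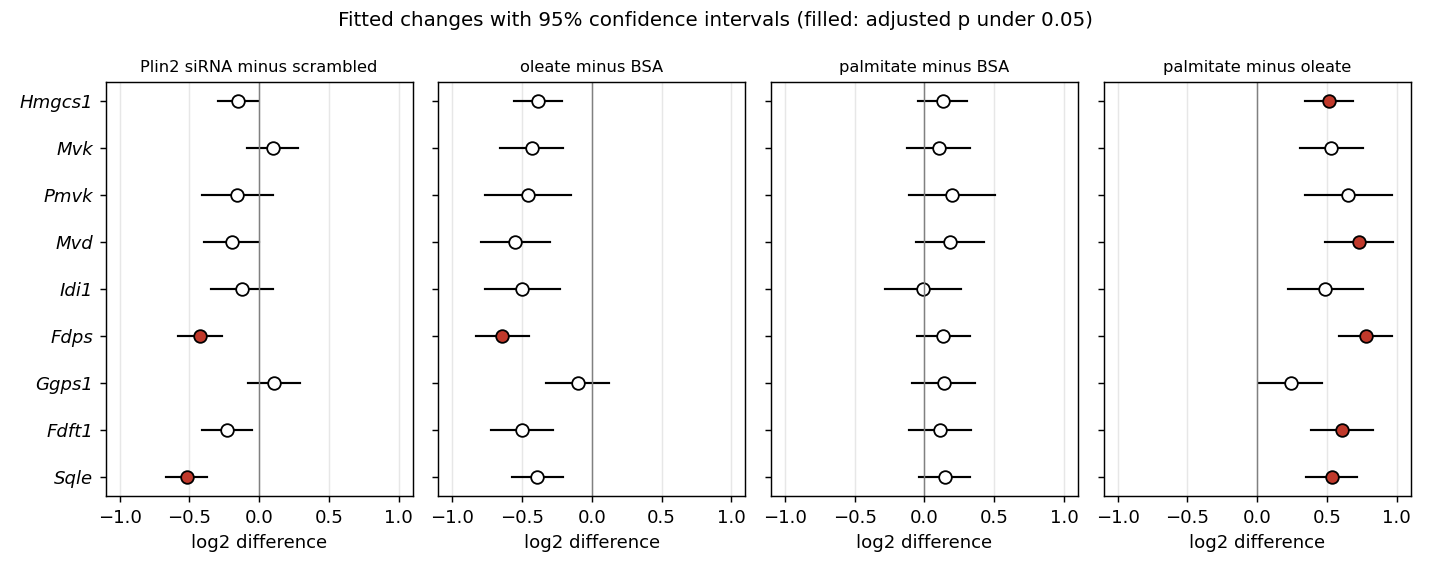
Fitted log2 differences of the 9 enzymes with 95% confidence intervals (limma, 6 arrays), a panel for each contrast. Filled points passed an adjusted p of 0.05: 2 for Plin2 siRNA minus scrambled, 1 for oleate minus BSA, 0 for palmitate minus BSA and 5 for palmitate minus oleate.

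These 5 calls did not hold under all settings. When limma ran with no intensity trend, or on all 35556 probe sets, 0 of the 9 passed, after quantile normalization 2 passed, and without the scrambled palmitate array Hmgcs1 (adjusted p = 0.061) and Sqle (adjusted p = 0.19) lost their calls.

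Against BSA, the fitted values of the enzymes were lower with oleate. With oleate all 9 enzymes had a fitted change below 0, with a median of -0.46 against -0.02 over all probe sets, of which 55.0% were below 0. Fdps fell, by 0.64 on the log2 scale (SE 0.09, limma adjusted p = 0.022, over 2 array pairs), to 64.1% of its BSA level, with -0.50 in Plin2 siRNA cells and -0.78 in scrambled cells. It was the 1 member of 9 to pass, where 0.0734% of all probe sets passed, 0.0413% falling and 0.0321% rising. The others stood at -0.55 for Mvd, -0.50 for Fdft1, -0.50 for Idi1, -0.46 for Pmvk, -0.43 for Mvk, -0.39 for Sqle and -0.39 for Hmgcs1, with adjusted p between 0.17 and 0.52. Ggps1 stood apart at -0.10 (95% confidence interval -0.33 to 0.13, adjusted p = 0.95), made of -0.30 in Plin2 siRNA cells and 0.10 in scrambled cells.

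In 7 of the 9 genes both oleate arrays were below all 4 other arrays, a pattern held by 7.47% of all probe sets. The exceptions were Ggps1 and Sqle. The Fdps call was lost without the scrambled BSA array (adjusted p = 0.52) and without the intensity trend (adjusted p = 0.58). Leaving out the Plin2 siRNA oleate array instead gave 5 members that fell, and leaving out the scrambled oleate, scrambled palmitate or Plin2 siRNA palmitate array gave 3 each, and the Plin2 siRNA BSA array 2.

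With palmitate against BSA, 0 of the 9 enzymes passed limma at the adjusted threshold, where 0.00918% of all probe sets rose. An unadjusted p under 0.05 was reached by 0 of the 9, against 1134 of 21789 probe sets. The changes ran from -0.01 for Idi1 to 0.20 for Pmvk, with a median of 0.14 against -0.01 over all probe sets. The 95% confidence interval was -0.04 to 0.30 for Hmgcs1 and -0.05 to 0.33 for Fdps. The palmitate minus oleate changes of Hmgcs1 and Fdps lay above these intervals, while that of Ggps1 (0.24) lay within its own (-0.09 to 0.37). Those changes share the palmitate arrays with these intervals and carry errors of their own, so this comparison is a description and not a test. In Plin2 siRNA cells all 9 genes were above their BSA level, with a median of 0.23, against 10051 of 21789 probe sets above 0 and a median of -0.01 in that array pair. In scrambled cells 5 of the 9 were above and 4 below, with a median of 0.02, against 10920 of 21789 probe sets above 0. The fitted median was 0.01 when the Plin2 siRNA BSA array was left out. The 3 fatty acid contrasts share arrays, so their values are not independent of each other.

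**Figure D3:**
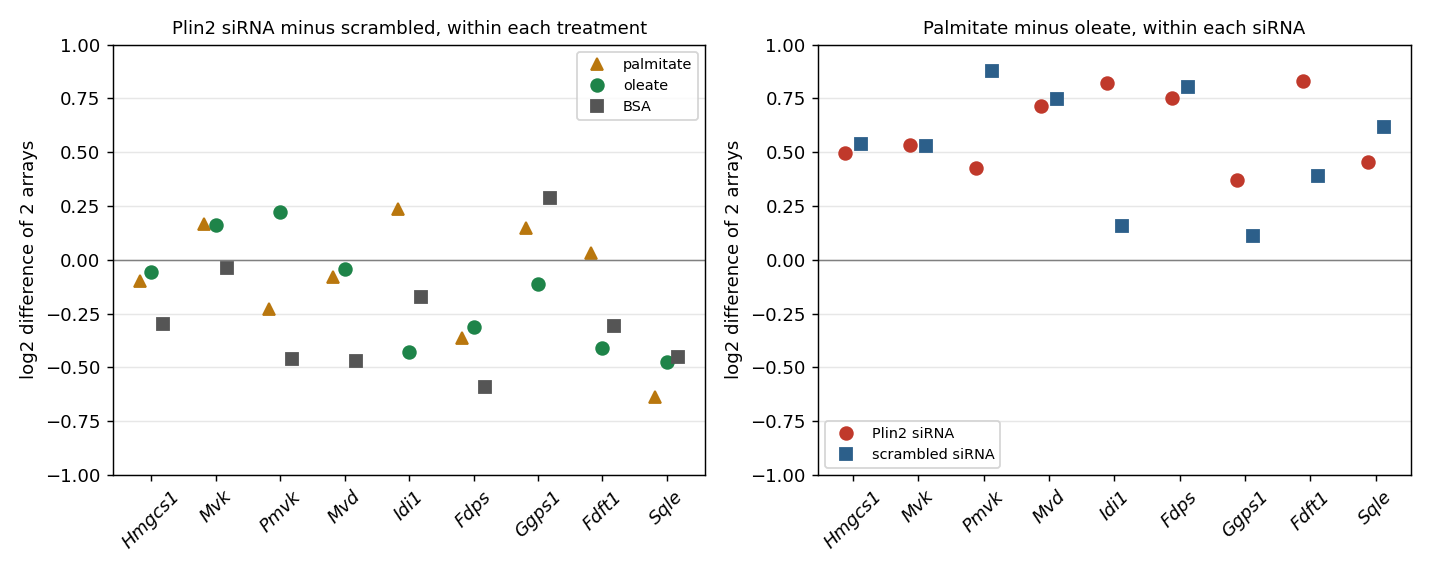
Log2 differences between single arrays for the 9 enzymes. Left, Plin2 siRNA minus scrambled within palmitate (triangles), oleate (circles) and BSA (squares); Hmgcs1, Mvd, Fdps and Sqle are below 0 in all 3. Right, palmitate minus oleate within Plin2 siRNA (circles) and scrambled siRNA (squares); all 18 differences are above 0.

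With Plin2 siRNA, Sqle and Fdps were the 2 members of 9 that passed. Sqle fell by 0.52 (SE 0.07, limma adjusted p = 0.00030, over 3 array pairs), to 69.7% of its level in scrambled cells, with -0.64 in palmitate, -0.47 in oleate and -0.45 in BSA. Fdps fell by 0.42 (SE 0.07, adjusted p = 0.0017), to 74.6%, with -0.36 in palmitate, -0.31 in oleate and -0.59 in BSA. Thus 2 of the 9 fell and 0 rose, where 17.1% of all probe sets passed, 8.58% falling and 8.50% rising, so the share of members called was near that of all probe sets. Both kept their call under each alternative run, including leaving out each array.

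Sqle was the 1 member whose 3 Plin2 siRNA arrays all lay below the 3 scrambled arrays, a pattern held by 14.7% of all probe sets. Hmgcs1, Mvd, Fdps and Sqle were lower with Plin2 siRNA in each of the 3 treatments, against 21.9% of all probe sets. Fdft1 stood at -0.23 (SE 0.08, adjusted p = 0.085), with 0.03 in palmitate, -0.41 in oleate and -0.31 in BSA. Its further probe set did fall, by 0.34 (adjusted p = 0.011), and Fdft1 passed when its probe sets were averaged (adjusted p = 0.029). Mvd stood at -0.20, Pmvk at -0.16, Hmgcs1 at -0.15 and Idi1 at -0.12, with adjusted p between 0.15 and 0.52.

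Mvk and Ggps1 leaned the other way, at 0.10 (95% confidence interval -0.09 to 0.28) and 0.11 (-0.08 to 0.29). Pmvk differed in sign between treatments, with -0.23 in palmitate, 0.22 in oleate and -0.46 in BSA, and Idi1 did so with 0.23 in palmitate, -0.43 in oleate and -0.17 in BSA. Without the oleate array of either siRNA, Pmvk and Mvd also fell, and without the palmitate array of either siRNA, Idi1 and Fdft1 fell, giving 4 called members in each case. Of the 8 myotube markers 5 fell with Plin2 siRNA as well, where 8.58% of all probe sets fell. Their median change was -0.22, and their mean log2 levels were 11.9 to 12.2 over the arrays. Of the 15 markers of other cell types 1 fell and 0 rose: Cd68, a macrophage marker named after its values were seen (-0.53), while the 4 macrophage markers had 2 values above and 2 below 0 and a median of -0.06. The part of these markers in the result was not tested. In such bulk RNA, fewer cells of a type and less RNA per cell cannot be told apart.

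The siRNA difference was widest in BSA, where the median of the 9 was -0.31 and 8 of them were below 0, against 10218 of 21789 probe sets. It was -0.08 in palmitate, with 5 below 0, against 11929 probe sets, and -0.11 in oleate, with 7 below 0, against 9704 probe sets. Whether the siRNA change differed between a fatty acid and BSA was tested with an interaction term. By limma 0 of the 9 passed, as did 0% of all probe sets. An unadjusted p under 0.05 was reached by 1 of the 9 (Mvd, 0.41, SE 0.19), against 551 of 21789 probe sets. The fit had 1 residual degree of freedom. Pmvk stood at 0.46 (SE 0.22), and the median of the 9 was 0.20. The direction and size of these interactions are therefore values without a call.

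Averaged over the 9 genes, each centred on its own mean, the arrays ran from 0.28 for scrambled palmitate through 0.24 for scrambled BSA, 0.18 for Plin2 siRNA palmitate, -0.04 for Plin2 siRNA BSA and -0.25 for scrambled oleate to -0.42 for Plin2 siRNA oleate. With 1 array per condition, neighbours in this order have no spread of their own by which they could be separated. The Plin2 siRNA oleate array was the lowest for 7 members (all but Mvk and Pmvk). The highest array was scrambled palmitate for 4 members, Plin2 siRNA palmitate for 3 and scrambled BSA for 2. As a description over the 6 arrays, each gene's correlation with the mean of the other 8 was 0.990 for Hmgcs1, 0.979 for Mvd, 0.964 for Fdps and 0.957 for Fdft1. It was 0.883 for Pmvk, 0.839 for Idi1, 0.817 for Mvk and 0.792 for Sqle, and lowest, at 0.384, for Ggps1.

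**Figure D4:**
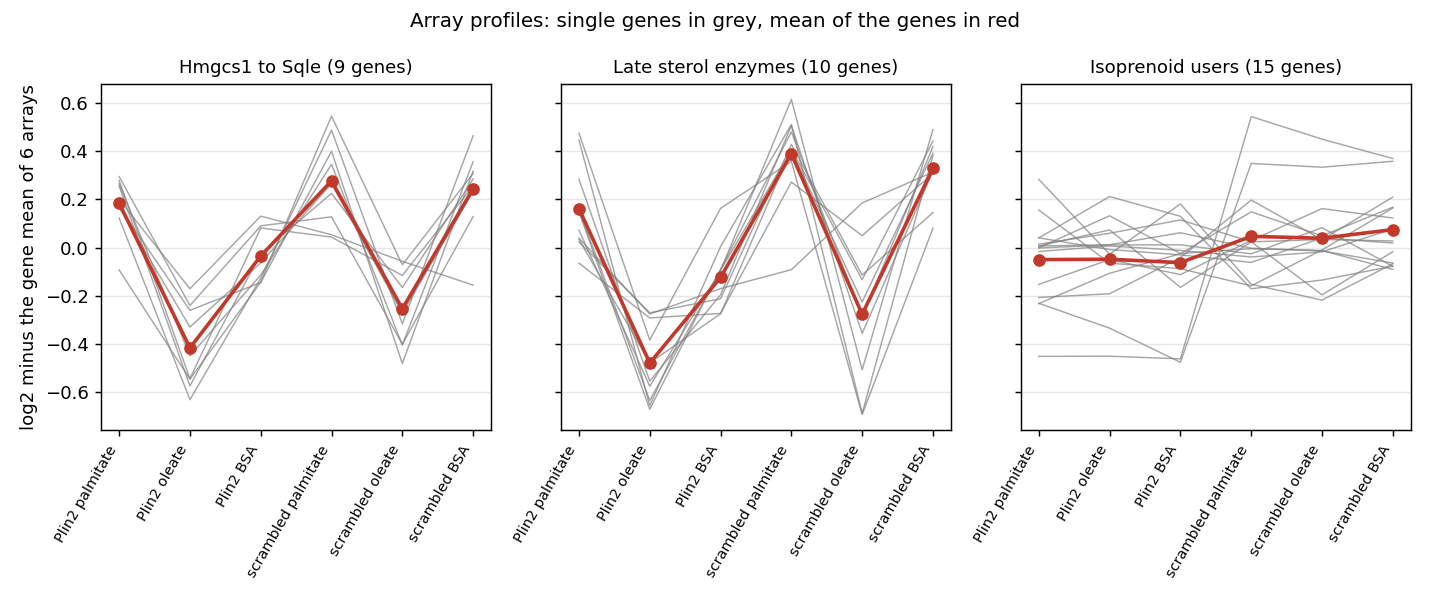
Log2 expression minus each gene's own mean over the 6 arrays, for the 9 early enzymes, 10 late sterol enzymes and 15 genes that use isoprenoids. Grey lines are single genes, red points their mean, and lines only join the arrays of a gene. The early enzymes reach their lowest mean, -0.42, in the Plin2 siRNA oleate array, and the means of the isoprenoid users stay between -0.06 and 0.08.

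The enzymes that follow Sqle, from lanosterol to cholesterol, also had their lowest mean in the Plin2 siRNA oleate array (-0.48) and their highest in the scrambled palmitate array (0.39). Of 10 late enzymes measured, 6 rose with palmitate against oleate and 0 fell (median 0.75), where 0.142% of all probe sets rose. The rises were led by the dehydrogenase Nsdhl at 1.15 (limma adjusted p = 0.00096) and the sterol reductase Tm7sf2 at 0.95 (adjusted p = 0.0020). Then came the cyclase Lss at 0.88 and Hsd17b7 at 0.85. With oleate against BSA 4 of the 10 fell (median -0.55), where 0.0413% of all probe sets fell: Nsdhl, Tm7sf2, Cyp51 and Msmo1. With Plin2 siRNA 7 of the 10 fell (median -0.35), among them Sc5d (-0.48) and Ebp (-0.42), where 8.58% of all probe sets fell. In the settings with no intensity trend or with all probe sets, 0 of all probe sets passed for palmitate against oleate and 0 fell with oleate, so these 6 and 4 calls end there. Whether the late enzymes changed more than the early ones was not tested.

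The genes that consume the pathway's isoprenoids had 0 calls between fatty acids. They encode prenyltransferases, enzymes that trim prenylated proteins and makers of dolichol, ubiquinone and haem side chains. Of 15 measured, 0 passed limma for either fatty acid or between them. Of all probe sets 0.262% passed for palmitate minus oleate, 0.0734% for oleate and 0.00918% for palmitate. The 0 of 15 is near those shares and does not set this list apart. In those 3 contrasts 0 of the 15 had an unadjusted p under 0.05, against 2007, 1365 and 1134 of 21789 probe sets. The medians were -0.01 for palmitate minus oleate, 0.01 for oleate and -0.01 for palmitate. With Plin2 siRNA 2 of the 15 rose and 3 fell, where 8.50% of all probe sets rose and 8.58% fell. The prenyl protein peptidase Rce1 (-0.91, limma adjusted p = 2.1e-05) and the ubiquinone enzyme Coq2 (-0.69) fell most, and the dolichol enzyme Dhdds (0.29) rose.

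Among 11 genes of sterol sensing and uptake, the retention protein Insig1 rose with palmitate against oleate (1.05, adjusted p = 0.0013), fell with oleate against BSA (-0.76, adjusted p = 0.016) and fell with Plin2 siRNA (-0.46, adjusted p = 0.0023). The ubiquitin ligase Rnf145 went the other way between the fatty acids (-1.13, adjusted p = 0.00096) and rose with oleate (0.80, adjusted p = 0.016). These 2 genes were the calls of that list in each fatty acid contrast that had any. Of all probe sets 0.142% rose and 0.119% fell for palmitate against oleate, and 0.0321% rose and 0.0413% fell for oleate against BSA. The palmitate against oleate calls of Insig1 and Rnf145 and the fall of Insig1 with oleate also end with no intensity trend and with all probe sets. The rise of Rnf145 with oleate ends with all probe sets, where 0 passed for oleate against BSA. With no intensity trend 2 probe sets rose with oleate, and whether Rnf145 was among them is not reported here. With Plin2 siRNA 1 of the 11 rose and 1, Insig1, fell, where 8.50% of all probe sets rose and 8.58% fell. The share called was thus near that of all probe sets. The gene that rose was Srebf2, which encodes the main activator of the pathway (0.20, limma adjusted p = 0.039). Whether these siRNA calls of Srebf2 and Insig1 hold under the other settings is not reported here. The member's paralog Idi2 had log2 values of 3.17 to 3.60 and passed in 0 contrasts.

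The genes most like the mean of the 9 enzymes were ranked by Pearson correlation over the 6 arrays, among 5521 genes with a range of at least 0.5. The first 8 were the sterol carrier Stard4 (0.990), Insig1 (0.983), Cyp51 (0.981), Hsd17b7 (0.980), Msmo1 (0.978), Nsdhl (0.973), the pacemaker channel Hcn4 (0.972) and the gap junction protein Gja5 (0.972). The arrays behind each correlation share their treatments, and 6 points allow high values among many genes.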

How the data were processed

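Expression was measured on Affymetrix whole-transcript arrays from 100 ng of total RNA with an integrity number above 8, 1 array for each of 6 conditions. Each deposited value is a log2 signal of a probe set, which the authors computed with RMA per the submitters' processing notes, whose version, like a genome build, is not given in the sources used here. The log base was read from RMA and the range of values. They were used without further scaling or filter. GEO's platform annotation tied 21789 of 35556 probe sets to 1 gene symbol, for 19938 genes; 1621 had several and 12146 were unnamed here.

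Changes were fitted with limma 3.58.1 (R 4.3.3) on the 21789 probe sets, with treatment and siRNA as terms and an intensity trend, leaving 2 residual degrees of freedom plus 9.21 borrowed across probe sets. Errors thus come from how the siRNA change varied over 3 treatments and how fatty acid changes varied over 2 siRNAs. The script was tested on simulated data. P-values were adjusted by Benjamini-Hochberg over 21789 probe sets, threshold 0.05. The number of arrays limits precision. The 9 genes, the lists (late sterol enzymes, sterol sensing and uptake, isoprenoid users, cell markers) and the tests were chosen with earlier results of these data known. Named were all 9 genes, Plin2, at most 4 called genes per list and contrast, and the 8 genes most like the 9. List genes without a probe set tied to 1 symbol were not analysed here. Alternatives were no trend, all probe sets, a low-signal filter (which kept all 9), quantile normalization, median centring, mean probe sets, fewer arrays and leaving out each array. Gene roles are textbook background.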

Additional observations from a re-analysis of the deposited data

Results flagged for a closer look

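For 5 results the change with a fatty acid had opposite signs under the 2 siRNAs, though for Mvk and Mvd the change in scrambled cells was close to 0. Each rests on 1 array per condition, and the difference was not tested for a single fatty acid. Ggps1 changed with oleate by -0.30 in Plin2 siRNA cells and by 0.10 in scrambled cells, a difference of -0.40. With palmitate, Idi1 changed by 0.20 in Plin2 siRNA cells and by -0.21 in scrambled cells, a difference of 0.41. Mvd changed with palmitate by 0.38 in Plin2 siRNA cells and by -0.01 in scrambled cells, a difference of 0.39. Fdft1 changed with palmitate by 0.28 in Plin2 siRNA cells and by -0.06 in scrambled cells, a difference of 0.34. Mvk changed with palmitate by 0.20 in Plin2 siRNA cells and by -0.001 in scrambled cells, a difference of 0.21. In 4 of the 5 the gene was above its BSA level with palmitate in Plin2 siRNA cells and at or below it in scrambled cells. The level with BSA was lower in Plin2 siRNA cells for Idi1, Mvd, Fdft1 and Mvk, by 0.17, 0.47, 0.31 and 0.04 on the log2 scale.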

How the results depend on the processing

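The falls of Sqle and Fdps with Plin2 siRNA held under every alternative run, and 0 members passed for palmitate against BSA or for the interaction under any. The 5 members called for palmitate against oleate became 0 with no intensity trend, 0 when unnamed probe sets were added, 2 after quantile normalization and 3 after centring; the 1 called for oleate against BSA became 0, 0, 1 and 1 under these, and 3 on the 4 oleate and BSA arrays alone. Leaving out 1 array gave 2 to 4 called members for the siRNA, 0 to 5 for oleate, 0 for palmitate and 4 to 7 for palmitate against oleate. The median change ran over these from -0.26 to -0.078 for the siRNA, -0.54 to -0.34 for oleate, 0.011 to 0.20 for palmitate and 0.48 to 0.60 for palmitate against oleate. Signs turned only for uncalled values: Idi1 with palmitate after quantile normalization (0.0043, against -0.008), and, over left-out arrays, Idi1 with the siRNA (-0.30 to 0.030, the low end passing), Ggps1 with oleate (-0.27 to 0.064), and, with palmitate, Pmvk (-0.030 to 0.43), Mvd (-0.020 to 0.39), Idi1 (-0.28 to 0.26) and Fdft1 (-0.084 to 0.31). Calls over all probe sets were 3721 for the siRNA (2159 with all probe sets, 2403 without the trend, 2213 to 3836 over left-out arrays), 16 for oleate (0, 2, and 3 to 262; 31 after the low-signal filter; 64 on 4 arrays), 2 for palmitate (0, 2, and 2 to 117; 119 on 4 arrays) and 57 for palmitate against oleate (0, 0, and 30 to 538; 25 after quantile normalization, 30 after centring, 86 on 4 arrays). The cause was not tested. No paired analysis was possible because, by replicate number, each condition has 1 array; the fit itself is paired by condition, comparing siRNAs within treatments and fatty acids within siRNAs. The interaction without 1 array has no residual degrees of freedom and was not run. Signal over background was not analysed here.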
